A study of Homo sapiens with 5 samples.

Results

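Cellular sensors of double-stranded RNA, and the proteins that carry their signal, were examined in RH4 cells given an siRNA against the circular RNA circVAMP3. The set held 9 genes, chosen by name as textbook sensors and signalling proteins: RIGI (formerly DDX58), IFIH1, TLR3, OAS1, OAS3, EIF2AK2, MAVS, IRF3 and STAT2. Of these, 5 had a value among the 13822 genes of the expression table, and all 5 were tested together with 13721 genes in all. IFIH1, TLR3, OAS1 and OAS3 had no value there, so their levels were not analysed here. Per the methods, genes under 1 CPM (a read count scaled to the depth of its library) in at least 3 libraries were removed. By read counts recovered from the FPKM values, 95.4% of the genes in the table met that limit and the rest did not. A gene without a value may still have been expressed at a low level.

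Double-stranded RNA in the cytoplasm is read as a sign of infection: RIG-I and MDA5 (the product of IFIH1) bind it and signal through the mitochondrial adaptor MAVS to the kinase TBK1 and the transcription factor IRF3, which switches on interferon genes. TLR3 reads the same ligand in endosomes, OAS enzymes answer it by making short oligoadenylates, and PKR (the product of EIF2AK2) answers it by phosphorylating the translation factor eIF2alpha and so slowing protein synthesis. Secreted interferon then acts through factors such as STAT2 and IRF9 on a large set of antiviral genes, among them most of the sensors themselves.

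RH4 is an established cell line of alveolar rhabdomyosarcoma, a childhood tumour with features of immature skeletal muscle. All cells received 30 nM of a Dharmacon siRNA with the lipid reagent Dharmafect-1. Collection came 24 h after a change of medium, which was itself made 24 h into the transfection. The control group, si-SCR, received a control siRNA (3 libraries), and the group si-circVAMP3 received an siRNA against the back-splice junction of the circle (2 libraries). Poly-A RNA was sequenced with a strand-specific kit, and the authors gave gene levels as FPKM, a level scaled to gene length and library depth. There was no group of untransfected cells, so every value belongs to cells that had taken up a double-stranded siRNA, and the response to transfection itself was not measured.

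The siRNA used is shown because it is itself a short double-stranded RNA and defines the groups. Of its 21 listed bases, 19 match the junction and 2 overhang. The capitals mark the 11 bases from exon 3 of VAMP3, and the 8 bases before them come from the end of exon 4. The DNA across the junction is given below it, 30 bases long, with exon 3 in capitals.
si-circVAMP3 listed strand: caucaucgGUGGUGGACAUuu
circVAMP3 junction: tcatcatcatcatcgGTGGTGGACATAATG
In GRCh38, exon 4 lies at chr1:7778118-7778169 and exon 3 lies at chr1:7777160-7777318, both in the coding part of the plus-strand gene VAMP3. Joined end to start, these 2 exons form a circle of 211 bases. The 19-base match occurred 0 times in the linear canonical transcript. That transcript does hold GTGGACA, letters within the capitals above, at 2 places, both in the coding part of exon 3.

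Recovered read totals were 26318020, 24930404 and 24818853 in si-SCR replicates 1 to 3, and 18534765 and 28677500 in si-circVAMP3 replicates 1 and 2. The linear VAMP3 mRNA, the host transcript of the circle, measured 36.4, 35.4 and 37.4 FPKM in the si-SCR libraries and 29.4 and 30.2 FPKM in the si-circVAMP3 libraries. Both si-circVAMP3 values lay below all 3 control values, and the level fell by 18.2% (log2 fold change, si-circVAMP3 minus si-SCR, -0.29 ± 0.04 SE; limma, adjusted p = 0.00504). Without si-circVAMP3 replicate 1 the limma adjusted p was 0.0524. The circle has no poly-A tail and was not measured in these libraries, so the depletion of the target itself was not tested here.

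Marker genes were read to check the label of the cells. Of 15 genes typical of RH4 cells, 12 had a value, and their summed level was 1450, 1480 and 1290 FPKM in si-SCR and 1090 and 1110 FPKM in si-circVAMP3. DES measured 291, 291 and 249 FPKM in si-SCR and 266 and 248 FPKM in si-circVAMP3. It lay below ACTC1 in every si-SCR library and above it in both si-circVAMP3 libraries. MYOD1 ranged from 84.3 to 127 FPKM, and MYF5, MYF6 and PAX7 had no value. Of the 12, 4 were called lower and 0 higher, where 14.6% of all tested genes were called lower and 12.8% higher. ACTC1 fell from 313, 355 and 313 FPKM to 169 and 175 FPKM (log2 fold change -0.92 ± 0.06 SE, limma adjusted p = 0.000393) and MYOG from 175, 179 and 149 FPKM to 101 and 96.6 FPKM (-0.76 ± 0.08 SE, limma adjusted p = 0.00158), both under all 16 alternatives, and CHRND and FOXO1 fell by 0.31 and 0.28 on the log2 scale (limma adjusted p = 0.0105 and 0.0259, up to 0.0783 and 0.162 over the alternatives). The summed level was lower in both si-circVAMP3 libraries than in any control, and its part in the changes described here was not tested. None of 5 immune markers had a value (0 of 5, PTPRC, CD3E, CD68, CD14 and LYZ all absent from the table). Of 7 fibroblast markers 4 had a value, with a summed level of 34.9, 32.2 and 32.7 FPKM in si-SCR and 30.7 and 28.2 FPKM in si-circVAMP3, nearly all of it COL3A1. Of these 4 markers 1 was called, PDGFRB, which rose at a low level from 0.226, 0.258 and 0.225 FPKM to 0.355 and 0.370 FPKM (log2 fold change 0.46 ± 0.14 SE, limma adjusted p = 0.0484, 0.0139 to 0.194 over the alternatives). The 1 endothelial marker with a value, PECAM1, lay between 0.0777 and 0.153 FPKM, with overlapping groups. The 1 epithelial marker with a value, KRT8, rose at a low level, from 0.316, 0.215 and 0.256 FPKM to 0.651 and 0.58 FPKM (log2 fold change 0.99 ± 0.16 SE, limma adjusted p = 0.00696; 0.0600 without si-circVAMP3 replicate 1). In bulk libraries such as these, fewer cells of a kind and less RNA per cell cannot be told apart.

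Across the transcriptome, limma called 3753 of 13721 genes at an adjusted p under 0.05 (27.4%), 1754 higher (12.8%) and 1999 lower (14.6%) in si-circVAMP3. The balance of directions depended on the processing: median centring gave 2047 higher and 1805 lower, and the fit without the variance trend 1270 and 1795. Against that background, 1 of the 5 measured sensing genes was called, EIF2AK2, which fell. At an unadjusted p under 0.05 the number was 3, with RIGI and IRF3 as the others, where 5548 of all 13721 genes (40.4%) passed the same limit. With the added demand of an absolute log2 fold change over 0.58, 795 genes were called (5.79%) and 0 of the 5. All p-values measure the spread among these 5 libraries of 1 cell line, which the methods describe as biological replicates.

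EIF2AK2 encodes PKR, a sensor and kinase in 1 protein, which is activated by double-stranded RNA. The gene (ENSG00000055332) lies on the minus strand at chr2:37099210-37157522 of GRCh38. Its level was 3.80, 4.19 and 4.32 FPKM in the si-SCR libraries and 2.75 and 2.84 FPKM in the si-circVAMP3 libraries. All 3 control libraries were higher than both si-circVAMP3 libraries, and the gap between the groups was wider than the spread inside either. Means were 4.10 ± 0.27 FPKM (SD, n = 3) and 2.79 ± 0.063 FPKM (SD, n = 2), a log2 fold change of -0.54 ± 0.08 SE with a limma adjusted p of 0.00541. The level thus fell by 31.1%, with a 95% interval of the log2 fold change from -0.73 to -0.34. The reads behind these values numbered from 548 to 1158 per library, and the exact Poisson interval of the lowest control value, 3.58 to 4.04 FPKM, did not reach that of the higher si-circVAMP3 value, 2.65 to 3.03 FPKM. Such intervals cover counting error only. Leaving out si-circVAMP3 replicate 1 moved the limma adjusted p to 0.0497, close to the threshold, within a range of 0.000773 to 0.0497 over all 16 other ways of processing.

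**Figure D1:**
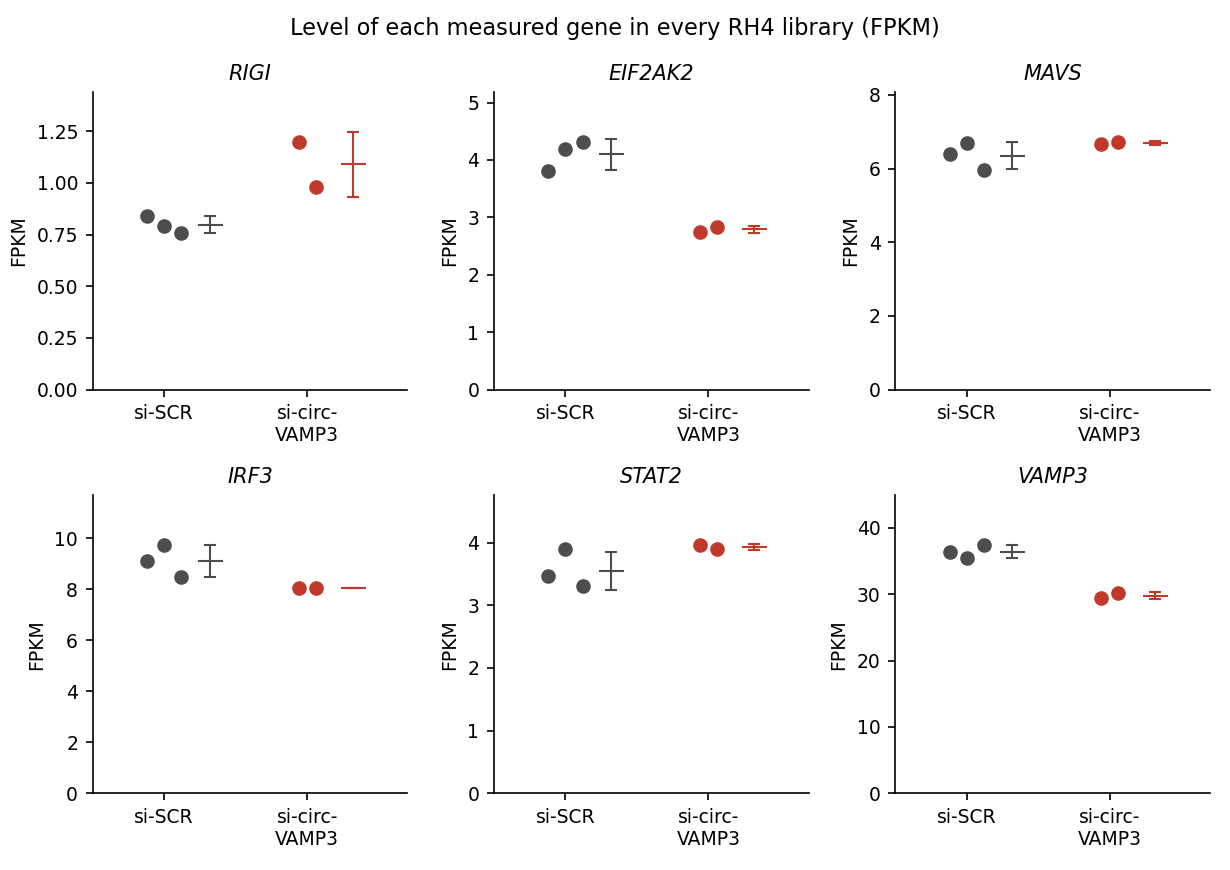
Level of the 5 measured sensing genes and of VAMP3 in each library, on a linear FPKM axis from 0; points are libraries, and the bar beside them is the mean with its SD (3 si-SCR, 2 si-circVAMP3). EIF2AK2 lies between 3.80 and 4.32 FPKM in si-SCR and at 2.75 and 2.84 FPKM in si-circVAMP3, while the MAVS values of the groups overlap.

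RIGI encodes RIG-I, the cytoplasmic helicase that binds short double-stranded RNA with a 5′ triphosphate. The gene (ENSG00000107201) lies on the minus strand at chr9:32455302-32526208. It was the least abundant of the 5, at 0.840, 0.793 and 0.760 FPKM in si-SCR and 1.2 and 0.980 FPKM in si-circVAMP3. Both si-circVAMP3 libraries were above all 3 controls, though they lay 22.2% apart from each other. The log2 fold change was 0.40 ± 0.13 SE (95% interval 0.10 to 0.70, not adjusted), and the limma adjusted p of 0.0556 missed the threshold. On a scale of log2(FPKM + 0.1), a fold change understates the difference of so low a gene.

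The reads behind RIGI numbered 104, 92 and 88 in si-SCR and 103 and 131 in si-circVAMP3, and the coefficient of variation among the controls, 5.04%, was smaller than the 10.3% that counting error alone would give. The exact Poisson interval of si-circVAMP3 replicate 2, 0.820 to 1.16 FPKM, overlapped those of all 3 controls, the highest of which reached 1.02 FPKM. That of si-circVAMP3 replicate 1, 0.978 to 1.45 FPKM, overlapped only that of si-SCR replicate 1. The intervals of si-SCR replicates 2 and 3 ended at 0.973 and 0.937 FPKM. The call turned with the processing: the limma adjusted p was 0.0465 with a pseudocount of 1 FPKM, 0.0470 with median centring, 0.0442 with quantile normalization and 0.0416 without the variance trend, and ranged up to 0.297 without si-circVAMP3 replicate 1. The fold change was above 0 in all 15 of the alternatives that gave a value.

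**Figure D2:**
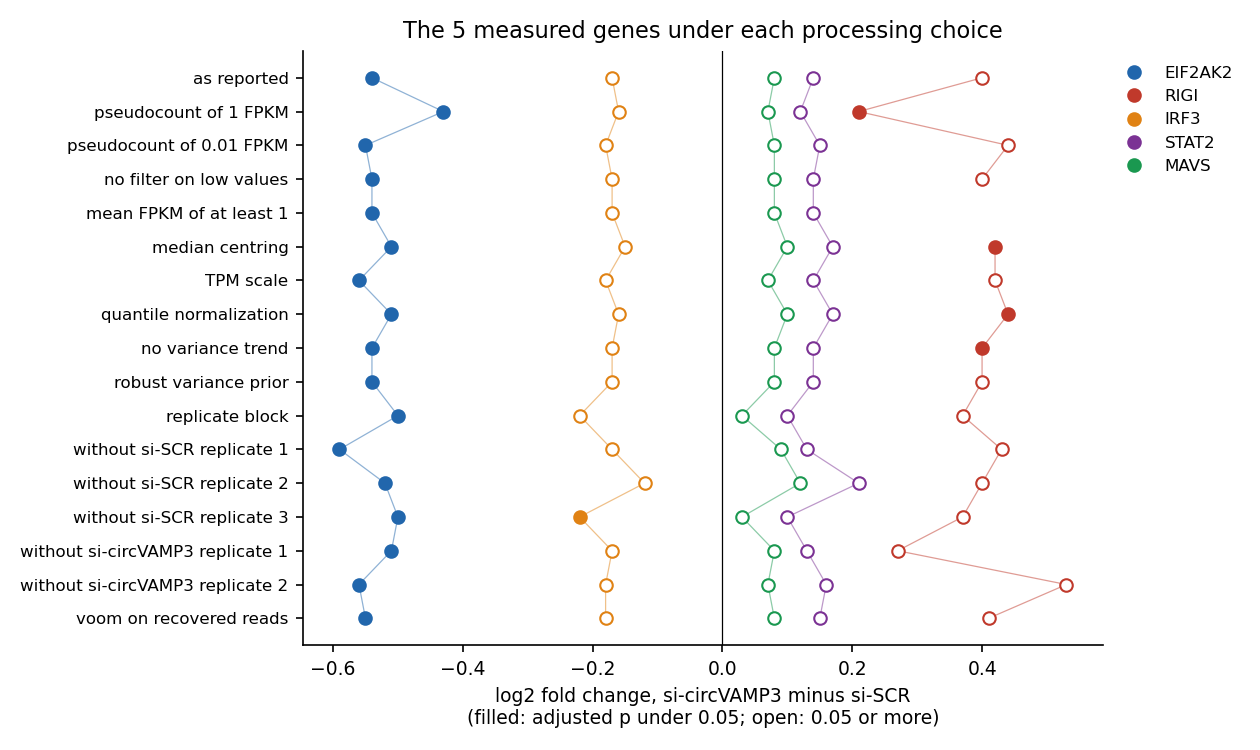
Log2 fold change (si-circVAMP3 minus si-SCR) of the 5 measured sensing genes as reported and under each other way of processing; filled points have a limma adjusted p under 0.05 and open points do not. EIF2AK2 stays between -0.59 and -0.43 with filled points throughout, and RIGI lies between 0.21 and 0.53 with 4 filled points.

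MAVS is the adaptor on the outer mitochondrial membrane on which RIG-I and MDA5 converge. It lies on the plus strand at chr20:3846799-3876123 (ENSG00000088888). Its level was 6.40, 6.68 and 5.95 FPKM in si-SCR and 6.66 and 6.73 FPKM in si-circVAMP3. The groups overlapped, since si-SCR replicate 2 exceeded si-circVAMP3 replicate 1. The log2 fold change of 0.08 ± 0.07 SE did not pass (limma adjusted p = 0.436), and its 95% interval, -0.08 to 0.24, bounds the difference these 5 libraries allow.

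IRF3, the transcription factor that TBK1 phosphorylates downstream of MAVS and of the TLR3 adaptor, was the most abundant of the 5 in every library. It lies on the minus strand at chr19:49659569-49665875 (ENSG00000126456). Its level was 9.10, 9.73 and 8.46 FPKM in si-SCR and 8.04 and 8.05 FPKM in si-circVAMP3. Both si-circVAMP3 values were below all controls, but si-SCR replicate 3 lay nearer to them than to si-SCR replicate 2. With a log2 fold change of -0.17 ± 0.07 SE (95% interval -0.34 to -0.01, not adjusted) IRF3 did not pass (limma adjusted p = 0.113). Without si-SCR replicate 3 the limma adjusted p was 0.0320, in a range of 0.0320 to 0.306 over the alternatives.

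STAT2, which joins IRF9 in a transcription factor complex that interferon activates, lies on the minus strand at chr12:56341597-56360203 (ENSG00000170581). Its level was 3.47, 3.89 and 3.3 FPKM in si-SCR and 3.96 and 3.89 FPKM in si-circVAMP3. The highest control and the lower si-circVAMP3 library were alike to 3 digits, but the unrounded values of the groups did not overlap. The log2 fold change was 0.14 ± 0.09 SE, with a 95% interval of -0.07 to 0.35 and a limma adjusted p of 0.269.

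The genes kept nearly the same order of level in all libraries when compared per length. In si-SCR the order was IRF3, MAVS, EIF2AK2, STAT2 and RIGI, and the ranges of EIF2AK2 (3.80 to 4.32 FPKM) and STAT2 (3.3 to 3.89 FPKM) overlapped as neighbours, while the others did not. In si-circVAMP3 the order was IRF3, MAVS, STAT2, EIF2AK2 and RIGI, and no neighbours overlapped. The ratio of EIF2AK2 to STAT2 within a library was 1.10, 1.08 and 1.31 in si-SCR and 0.694 and 0.729 in si-circVAMP3. The ratio of EIF2AK2 to MAVS was 0.594, 0.628 and 0.726 against 0.413 and 0.422, and these ratios do not depend on how whole libraries are scaled. The ratio of RIGI to MAVS was 0.131, 0.119 and 0.128 against 0.180 and 0.146. Levels rest on the gene lengths implied by the values, from 3794 bases for IRF3 to 11771 for MAVS, and shift if RH4 cells use shorter transcripts.

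Counting followed the strand, so antisense neighbours were counted apart. GPATCH11, which overlaps EIF2AK2 on the other strand, also fell, with 5.95, 5.61 and 5.95 FPKM in si-SCR and 4.50 and 4.83 FPKM in si-circVAMP3 (log2 fold change -0.32 ± 0.07 SE, limma adjusted p = 0.0162). BCL2L12, which overlaps IRF3 on the other strand, rose from 17.8, 16.7 and 15.4 FPKM to 20.4 and 19.9 FPKM (log2 fold change 0.28 ± 0.07 SE, limma adjusted p = 0.0239). GPATCH11 lost its call in 3 of the 16 alternatives and BCL2L12 in 4, at an adjusted p of up to 0.116 and 0.137. These were the fits with 1 si-circVAMP3 library for both genes, the replicate block for GPATCH11 (0.0589), and the fits without the variance trend (0.0597) and without si-SCR replicate 2 (0.0721) for BCL2L12. On the same strand, RIGI, STAT2 and VAMP3 each overlap 1 further annotated gene that had no value in the table, and EIF2AK2, IRF3 and MAVS overlap none.

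Genes whose pattern over the 5 libraries was most like that of EIF2AK2 were SYTL2 (Pearson r = 0.9998), MTR (r = 0.9996) and NUBPL (r = 0.9996). SYTL2, a vesicle tethering protein, measured 14.2, 15.1 and 15.5 FPKM in si-SCR and 11.3 and 11.6 FPKM in si-circVAMP3. With 5 libraries in 2 groups such likeness was common: 1146 of 11093 genes (10.3%) had r over 0.95 with EIF2AK2.

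The rest of the pathway was read from 8 lists of 148 genes, of which 102 had a value and were tested. Of these, 24 were called higher (23.5%, against 12.8% of all genes) and 12 lower (11.8%, against 14.6%), with a median log2 fold change of 0.07 where that of all genes was 0.00. Beyond an absolute log2 fold change of 0.58 there were 7 higher (6.86%) and 4 lower (3.92%), against 227 (1.65%) and 568 (4.14%) of all genes. With 1 library left out the calls over all genes changed as well. Without si-SCR replicate 2 the pathway had 13 higher (12.7%, against 6.79% of all genes) and 8 lower (7.84%, against 8.88%), and without si-SCR replicate 3 it had 28 higher (27.5%, against 14.3%) and 12 lower (11.8%, against 14.9%). Without si-circVAMP3 replicate 1 there were 8 higher (7.84%, against 3.34%) and 7 lower (6.86%, against 6.02%), and without si-circVAMP3 replicate 2 there were 9 higher (8.82%, against 3.39%) and 7 lower (6.86%, against 5.85%). Of the 46 genes without a value, 9 were in the list of 11 interferons, chemokines and receptors and 15 in that of 36 interferon effectors. Among those without a value were all 5 interferon ligands listed and DHX58, OAS2, OASL, ZBP1, IRF7, MX1, MX2, RSAD2, STING1 and USP18.

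**Figure D3:**
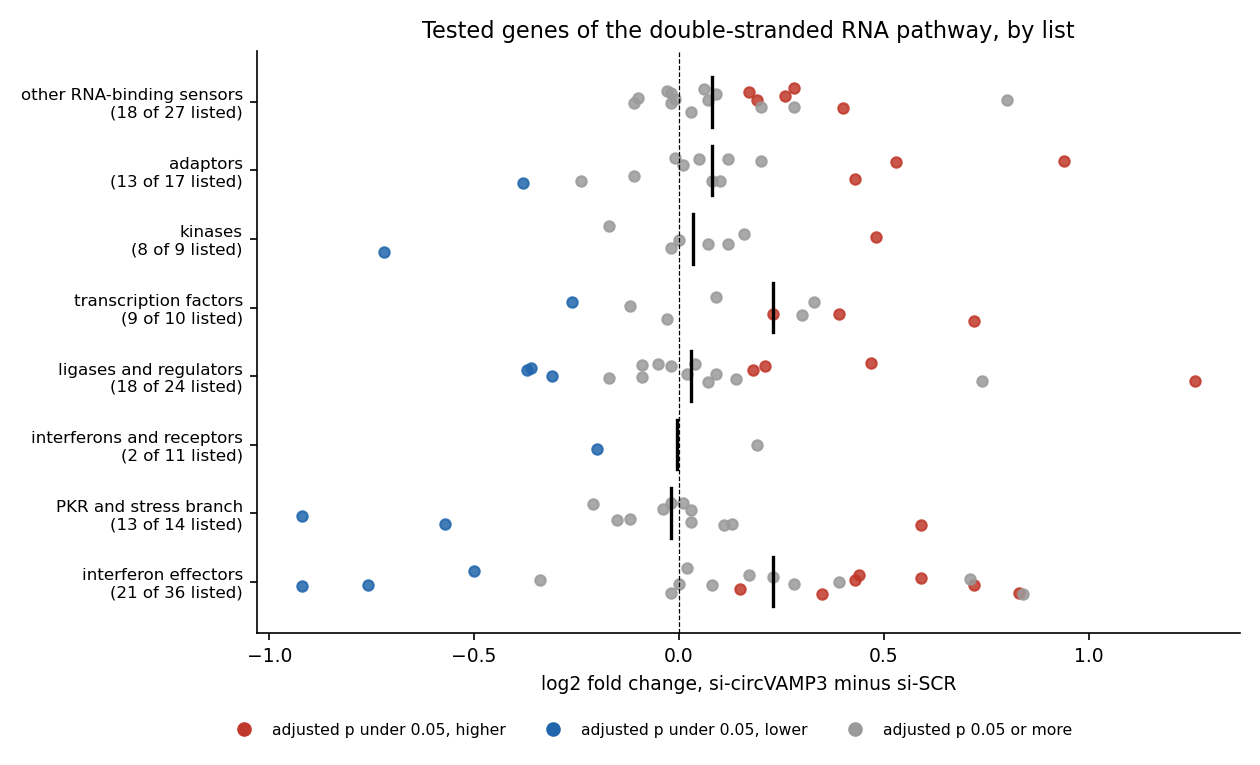
Log2 fold change (si-circVAMP3 minus si-SCR) of each tested gene in the 8 lists; each point is a gene, coloured by whether its limma adjusted p was under 0.05, the black bar is the median of the list and the dashed line the median of all 13721 genes. Medians lie between -0.02 and 0.23, and 6 of the 8 lists hold calls in both directions.

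Among 18 measured RNA-binding proteins related to the sensors, 5 rose (27.8%, against 12.8% of all genes) and 0 fell (against 14.6%). The other 13 did not pass, and the median log2 fold change of the list was 0.08. Over the alternatives the number that rose ranged from 0 to 7, with 0 when either si-circVAMP3 library was left out. ADARB1, an adenosine deaminase of double-stranded RNA, rose from 1.82, 1.90 and 1.83 FPKM to 2.38 and 2.58 FPKM (log2 fold change 0.40 ± 0.09 SE, limma adjusted p = 0.0167). TARBP2, a partner of Dicer that also binds PKR, rose from 11.2, 11.2 and 10.9 FPKM to 13.5 and 13.5 FPKM (0.28 ± 0.05 SE, limma adjusted p = 0.00744), and DICER1, the nuclease itself, by 0.26 ± 0.08 SE (limma adjusted p = 0.0482). ADAR, whose editing of cellular double-stranded RNA keeps it from MDA5 and PKR, rose from 16.8, 17.5 and 18.6 FPKM to 20.6 and 19.7 FPKM (0.19 ± 0.06 SE, limma adjusted p = 0.0485), and the helicase DHX9 rose by 0.17 ± 0.04 SE (limma adjusted p = 0.0234). All 5 were higher in both si-circVAMP3 libraries than in any control, a pattern that picking genes by their call favours. Over the alternatives their log2 fold changes ranged from 0.29 to 0.46, 0.26 to 0.30, 0.20 to 0.33, 0.16 to 0.23 and 0.14 to 0.21 in that order. All 5 calls were lost with either si-circVAMP3 library left out. The DICER1 and ADAR calls were also lost with all 5 libraries kept, on the TPM scale (0.0506 and 0.0521), with quantile normalization (0.0670 and 0.0624) and without the variance trend (0.104 and 0.102), and the DHX9 call without the variance trend (0.0830) and with the replicate block (0.0546).

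Of 13 measured adaptors, 3 rose (23.1%, against 12.8% of all genes) and 1 fell (7.69%, against 14.6%), with a median of 0.08. TICAM1, the adaptor that TLR3 needs to signal, stood at 1.13, 0.942 and 0.839 FPKM in si-SCR and at 2.02 and 1.88 FPKM in si-circVAMP3. Both si-circVAMP3 libraries were well above every control, a log2 fold change of 0.94 ± 0.14 SE (limma adjusted p = 0.00459). FADD and TRADD, death-domain adaptors that also take part in signalling from MAVS, rose by 0.43 ± 0.05 SE (limma adjusted p = 0.00213) and 0.53 ± 0.13 SE (limma adjusted p = 0.0223; 0.125 without si-circVAMP3 replicate 1 and 0.105 without si-circVAMP3 replicate 2). AZI2, a scaffold of TBK1, fell from 20.6, 20.9 and 22.3 FPKM to 16.0 and 16.5 FPKM (-0.38 ± 0.05 SE, limma adjusted p = 0.00349).

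Of 8 measured kinases between adaptors and transcription factors, 1 rose (12.5%), 1 fell (12.5%) and 6 did not pass, shares near those of all genes (12.8% and 14.6%), with a median of 0.03. TBK1, the kinase of IRF3, measured 7.37, 7.31 and 7.79 FPKM in si-SCR and 10.4 and 10.6 FPKM in si-circVAMP3, a rise of 39.7% (log2 fold change 0.48 ± 0.06 SE, limma adjusted p = 0.00201). MAP3K7, also called TAK1, which activates the NF-kB branch, fell from 38.6, 41.4 and 40.7 FPKM to 24.5 and 24.3 FPKM (-0.72 ± 0.05 SE, limma adjusted p = 0.000286). In both genes the groups lay far apart beside a narrow spread. Among 9 measured transcription factors 3 rose (33.3%, against 12.8% of all genes) and 1 fell (11.1%, against 14.6%), with a median of 0.23. Without si-SCR replicate 2, 0 rose and 0 fell, against 6.79% and 8.88% of all genes. IRF1 and RELA rose by 0.39 ± 0.10 SE (limma adjusted p = 0.0303) and 0.23 ± 0.06 SE (limma adjusted p = 0.0233), and NFKB1 fell by 0.26 on the log2 scale (SE 0.06, limma adjusted p = 0.0230).

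IRF9, the DNA-binding partner of STAT2, was at 0.314, 0.190 and 0.325 FPKM in si-SCR and 0.587 and 0.446 FPKM in si-circVAMP3 (log2 fold change 0.72 ± 0.21 SE, limma adjusted p = 0.0466). Both si-circVAMP3 values lay above all 3 controls, but IRF9 was near the floor of the table, and its limma adjusted p reached 0.244 over the alternatives. The IRF1, RELA and NFKB1 calls were lost in 5, 4 and 5 of the 16 alternatives, the replicate block and both fits with 1 si-circVAMP3 library among them, with limma adjusted p-values of up to 0.145, 0.137 and 0.138. Of the 2 measured interferon receptor chains, IFNAR1 fell by 0.20 on the log2 scale (SE 0.06, limma adjusted p = 0.0360, up to 0.196 over the alternatives). IFNAR2 was higher in both si-circVAMP3 libraries than in any control but did not pass (0.19 ± 0.08 SE, limma adjusted p = 0.112, 0.0280 to 0.318 over the alternatives).

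Among 18 measured ubiquitin ligases and other regulators, 4 rose (22.2%, against 12.8% of all genes) and 3 fell (16.7%, against 14.6%), with a median of 0.03. SOCS3, a feedback inhibitor of cytokine receptors, had the largest change of the 102 genes, from 2.13, 1.89 and 1.58 FPKM to 4.36 and 4.83 FPKM (log2 fold change 1.26 ± 0.13 SE, limma adjusted p = 0.00141). TNFAIP3, or A20, a deubiquitinase that restrains NF-kB and RIG-I signalling, rose from 21.5, 22.7 and 21.0 FPKM to 29.5 and 30.9 FPKM (0.47 ± 0.05 SE, limma adjusted p = 0.00167), and OTUD4, a deubiquitinase of MAVS, rose by 0.21 ± 0.05 SE (limma adjusted p = 0.0293). Each of the 3 was higher in both si-circVAMP3 libraries than in any control, a pattern that picking genes by their call favours. PPP1CA and PPP1CC, the phosphatases that remove inhibitory phosphates from RIG-I and MDA5, fell by 0.37 (limma adjusted p = 0.00343) and 0.31 (limma adjusted p = 0.00703) on the log2 scale, and CYLD, a further deubiquitinase of RIG-I, fell by 0.36 (limma adjusted p = 0.0290). OTUD4, CYLD and PPP1CC did not pass in 5, 5 and 2 of the 16 alternatives, at limma adjusted p-values of up to 0.153, 0.144 and 0.0596.

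EIF2AK2 is 1 of 4 kinases that phosphorylate eIF2alpha, each answering another stress. EIF2AK3, or PERK, the kinase of endoplasmic reticulum stress, fell further than EIF2AK2, from 4.52, 4.05 and 4.60 FPKM to 2.25 and 2.30 FPKM (log2 fold change -0.92 ± 0.08 SE, limma adjusted p = 0.000932). EIF2AK4, or GCN2, which senses amino acid shortage, stood at 5.75, 5.45 and 6.02 FPKM against 4.88 and 4.98 FPKM and missed the threshold (-0.21 ± 0.07 SE, limma adjusted p = 0.0576, 0.0231 to 0.229 over the alternatives). EIF2AK1, or HRI, the most abundant of the 4, was at 31.4, 33.2 and 34.3 FPKM against 33.3 and 34.2 FPKM, with overlapping groups (0.03 ± 0.05 SE, limma adjusted p = 0.658). Whether the changes of the 4 differ from each other was not tested.

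**Figure D4:**
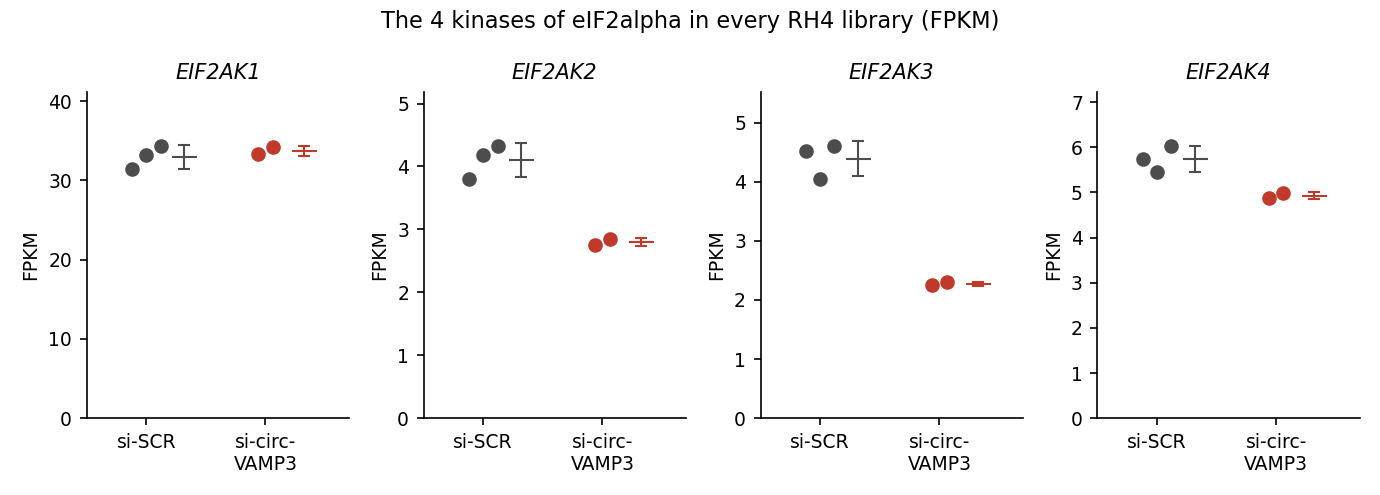
Level of the 4 eIF2alpha kinases in each library, on linear FPKM axes from 0 that differ between panels; points are libraries, and the bar beside them is the mean with its SD (3 si-SCR, 2 si-circVAMP3). EIF2AK2 and EIF2AK3 are lower in both si-circVAMP3 libraries, at 2.75 and 2.84 FPKM and at 2.25 and 2.30 FPKM, and EIF2AK1 overlaps between the groups.

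In the list around PKR and the stress it signals as a whole, 1 of 13 measured genes rose (7.69%, against 12.8% of all genes) and 2 fell (15.4%, against 14.6%), with a median of -0.02. G3BP2, a component of the stress granules that form when eIF2alpha is phosphorylated, fell from 65.5, 63.0 and 65.7 FPKM to 44.2 and 43.0 FPKM (-0.57 ± 0.04 SE, limma adjusted p = 0.000407). DDIT3, or CHOP, a transcription factor induced downstream of eIF2alpha phosphorylation, rose from 18.9, 18.9 and 17.9 FPKM to 27.2 and 28.6 FPKM (0.59 ± 0.05 SE, limma adjusted p = 0.000734). Both changes were several times the spread within the groups.

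Of 21 measured interferon effectors, 7 rose (33.3%, against 12.8% of all genes) and 3 fell (14.3%, against 14.6%), with a median of 0.23. Of the 36 listed, 15 had no value. The number that rose ranged from 2 without si-circVAMP3 replicate 1 to 10 with limma-voom over the alternatives, and the number that fell from 2 to 3. LY6E, an interferon-induced membrane protein, rose from 12.8, 11.6 and 12.3 FPKM to 22.1 and 21.6 FPKM (0.83 ± 0.06 SE, limma adjusted p = 0.000359). BST2, or tetherin, which holds budding virions at the cell surface, rose from 4.73, 4.25 and 4.26 FPKM to 6.71 and 6.69 FPKM (0.59 ± 0.07 SE, limma adjusted p = 0.00250), and IFI44 by 0.72 ± 0.11 SE (limma adjusted p = 0.00607; 0.0506 without si-circVAMP3 replicate 1). PARP9 and its partner DTX3L, which form a complex, went the other way. PARP9 fell from 4.89, 4.60 and 5 FPKM to 2.55 and 2.47 FPKM (-0.92 ± 0.07 SE, limma adjusted p = 0.000652), and DTX3L from 6.08, 5.99 and 5.85 FPKM to 3.52 and 3.46 FPKM (-0.76 ± 0.06 SE, limma adjusted p = 0.000693). HERC5, the ligase that attaches ISG15, fell by 0.50 on the log2 scale (SE 0.12, limma adjusted p = 0.0212, up to 0.137 over the alternatives). ISG15 itself was at 2.03, 2.26 and 0.555 FPKM in si-SCR and 2.55 and 2.56 FPKM in si-circVAMP3, and the low value of si-SCR replicate 3 rested on 12 reads. Its log2 fold change was 0.84 ± 0.52 SE (limma adjusted p = 0.272) and shrank to 0.24 without that library (limma adjusted p = 0.0987).

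**Figure D5:**
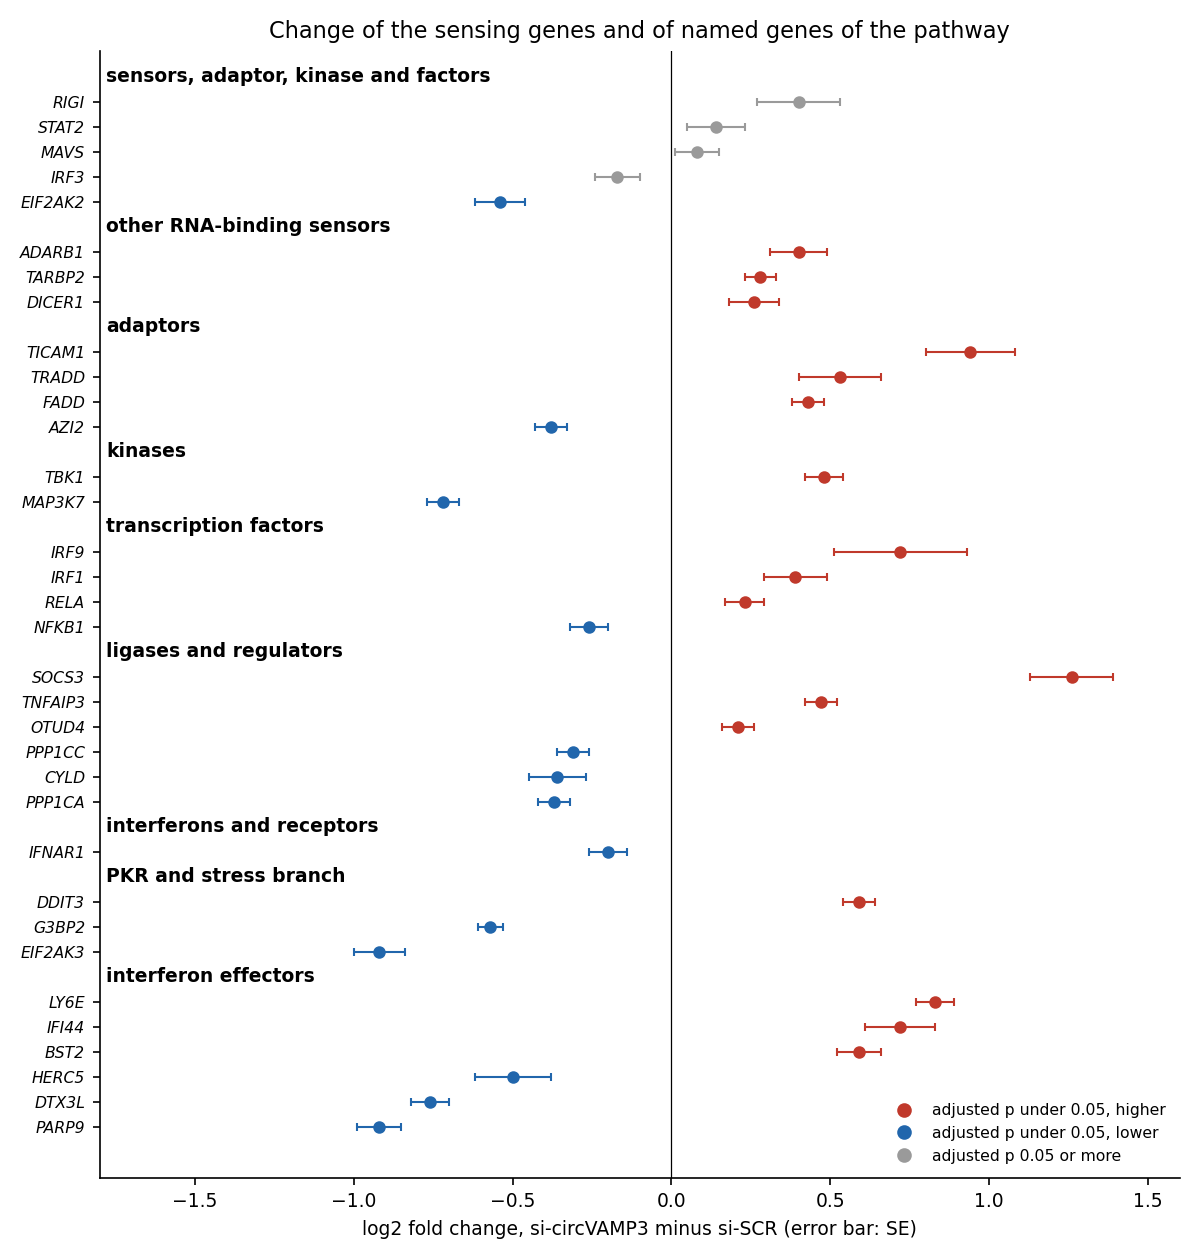
Log2 fold change (si-circVAMP3 minus si-SCR, horizontal axis, bar = SE) of the 5 measured sensing genes, in the top block, and of the named genes of each list; colour shows whether the limma adjusted p was under 0.05. EIF2AK2 at -0.54 is the only coloured point of the top block, and SOCS3 at 1.26 lies farthest to the right.

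Promoters were searched for the letters GAAANNGAAA on either strand, the core of the element that IRF proteins bind, in the 250 bases before and 50 bases after the start site (RefSeq, GRCh38.p14). The letters occurred in 1255 of 35116 promoters (3.57%). Of the 9 sensing genes, 8 matched by symbol, and 4 of these hold the letters: EIF2AK2, IFIH1, TLR3 and OAS3. IRF3 was not among the promoters. Windows of 50 bases are shown for EIF2AK2, the sensing gene that fell, and for effectors that fell or rose, with the letters in capitals.
EIF2AK2: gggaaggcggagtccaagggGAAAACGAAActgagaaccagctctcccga
DTX3L: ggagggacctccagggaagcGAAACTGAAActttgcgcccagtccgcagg
BST2: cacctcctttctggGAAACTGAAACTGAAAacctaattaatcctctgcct
IFI44: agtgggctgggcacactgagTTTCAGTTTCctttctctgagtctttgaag
The EIF2AK2 window, chr2:37156957-37157006 on the minus strand, has its match starting 6 bases before the start site (position -6). The DTX3L window, chr3:122564312-122564361 on the plus strand, is at the same time the promoter of PARP9, which is read from the opposite strand. The BST2 window holds 2 overlapping matches, which start at positions -130 and -124. BST2 is at chr19:17405725-17405774 (minus strand) and IFI44 at chr1:78649751-78649800 (plus strand). A match describes the letters of a window and not a bound site.

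The letters occurred in genes called in either direction. Of 87 tested pathway genes with a promoter, 23 held them (26.4%), of which 6 rose (26.1%) and 3 fell (13%). Of the 64 without them the shares were much the same, as 16 rose (25%) and 8 fell (12.5%). The median log2 fold changes were 0.15 with the letters and 0.06 without. Among the effectors the medians ran the other way, at 0.08 for the 15 with the letters (4 rose, 3 fell) and 0.43 for the 3 without them (2 rose, 0 fell). Over all 10322 tested genes with a promoter, 366 held the letters (3.55%), 50 of them higher (13.7%) and 55 lower (15%) with a median of 0.01. The shares among the 9956 without the letters were much the same, 13.6% higher and 15% lower, also with a median of 0.01. Among the holders were EIF2AK2, which fell, and BST2 and IFI44, which rose.

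An siRNA can also act on RNAs that match bases 2 to 8 of either of its strands, so the sensing genes were searched for these 7 letters in their canonical transcripts (GENCODE 44). For the strand opposite to the listed one the letters are GTGGACA. EIF2AK2 and STAT2 each hold them once, in the coding part, MAVS holds them at 2 places of its 3′ UTR, and RIGI and IRF3 hold none. The windows below are 30 bases long, with the letters in capitals.
EIF2AK2 coding: caaagtatactGTGGACAagaggtttggca
STAT2 coding: gcctcctgcctGTGGACAttcgacagtact
MAVS 3′ UTR: tgcttctccacGTGGACAgtgagtatctgg
The EIF2AK2 letters lie in exon 10 at chr2:37135488-37135494, those of STAT2 in exon 2 at chr12:56356481-56356487 and the MAVS ones shown in exon 7 at chr20:3866981-3866987. Of the 3 genes only EIF2AK2 was called. Coding matches were not counted over all genes, so the shares below, for the 3′ UTR, do not cover the EIF2AK2 and STAT2 sites.

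Over all tested protein-coding genes, 1394 (11.7%) held GTGGACA in the 3′ UTR, and 31.1% of them were called lower and 6.60% higher, with a median log2 fold change of -0.12. Among the 10561 without it, 12.8% were lower and 15.1% higher, with a median of 0.03. Genes that held it had longer 3′ UTRs, with a median of 2996 bases against 1242. For the letters matching the listed strand, CGATGAT, 219 genes held them, 17.4% of which were lower and 10.5% higher, with a median of 0.00, against 14.9% lower and 14.2% higher with a median of 0.01 among the 11736 without them. Of the 102 pathway genes, 8 held GTGGACA in the 3′ UTR, of which MAP3K7, G3BP2 and IFNAR1 fell and TICAM1 rose. Outside the 3′ UTR only named genes were searched. NFKB1, PPP1CA, CYLD, PPP1CC, EIF2AK3, PARP9, HERC5 and G3BP2, which fell, hold it in the coding part. So do ADAR and TICAM1, which rose, and EIF2AK4 and ISG15, which did not pass. AZI2 and DTX3L, which fell, hold none. What part the siRNA itself had in any change of the sensing genes was not tested.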

How the data were processed

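Poly-A RNA of 5 RH4 cultures was analysed, grouped as si-SCR (3) and si-circVAMP3 (2) by the sample titles. Per the submitters' notes and the methods, the authors demultiplexed reads with bcl2fastq 2.20.0.422, trimmed them with Trimmomatic, aligned them to GRCh38 with STAR 2.5.2b, counted them per gene and strand with HTSeq and deposited FPKM values computed with edgeR, after removing genes under 1 CPM in at least 3 libraries.

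FPKM values were tested with limma 3.58.1 (R 4.3.3, empirical Bayes with a variance trend) on log2(FPKM + 0.1) for genes with at least 0.1 FPKM in at least 2 libraries, with Benjamini-Hochberg adjustment over all 13721 genes and a threshold of 0.05. The test was checked on simulated data first. Symbols were found for 13783 of 13822 gene identifiers.

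Whole reads could be recovered from the FPKM values: 100% of the genes gave whole numbers in all 5 libraries within 0.01 reads, as the smallest whole numbers that fit. They served for depth, exact Poisson intervals (scipy 1.17.1) and limma-voom, an alternative chosen after seeing the data. Of the genes, 95.4% had at least 1 CPM in at least 3 libraries. The table thus also holds genes that the stated filter would remove. Replicates differed by more than counting noise, so each counted as 1 sample.

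The members and lists were chosen with earlier results of these data known, and lists are described by counts and medians without a test. Named genes are the 9 sensing genes, VAMP3, up to 3 genes called higher and 3 called lower with the largest change in each of 8 lists, and the 3 genes of mean FPKM of at least 1 most correlated with EIF2AK2. EIF2AK1, EIF2AK4, ADAR, ISG15, IFNAR2, DHX9, GPATCH11 and BCL2L12 were added as partners of these, and ACTC1, MYOG, CHRND, FOXO1, KRT8 and PDGFRB as called cell markers, after their values were seen, and the promoters and sites shown were also chosen then. Alternatives were other pseudocounts, filters, scalings, variance priors, a replicate block and leaving out each library. Promoters came from RefSeq, and transcripts and positions from GENCODE 44 on GRCh38. Figures were drawn with matplotlib 3.10.9.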

Additional observations from a re-analysis of the deposited data

How the results depend on the processing

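Of 52 named genes, 22 had the same call and direction under all 16 alternatives, EIF2AK2 among them, and 34 under the 11 that kept all 5 libraries; the log2 fold change of EIF2AK2 ranged from -0.59 to -0.43. RIGI passed at 0.21 with a pseudocount of 1 FPKM, 0.42 with median centring, 0.44 with quantile normalization and 0.40 without the variance trend, so 2 of the 5 sensing genes were called under each of these; its value ranged from 0.27 to 0.53 with 1 library left out, and a filter on mean FPKM of at least 1 removed it. With 1 library left out, IRF3 ranged from -0.22 to -0.12 and the sensing genes called from 1 to 2. EIF2AK1 ranged from -0.00 to 0.06 and changed sign without si-SCR replicate 1. Calls over all genes ranged from 458 to 1961 higher and from 803 to 2051 lower with 1 library left out, and those of the pathway from 8 to 28 higher and from 7 to 12 lower; an arm of 1 library was taken to vary like the other. The calls were not always fewer: without si-SCR replicate 3 they were 1961 higher and 2051 lower. Median centring gave 2047 higher and 1805 lower, and no variance trend 1270 and 1795. No scaling moved the median of all genes by more than 0.026 on the log2 scale. With the replicate number as a block, 1319 genes were higher and 1560 lower, and EIF2AK2 had a limma adjusted p of 0.0221. Deviations from the group mean correlated at -0.155 and -0.0379 between same-numbered libraries. With only 2 si-circVAMP3 libraries their deviations mirror each other, so these values cannot decide whether the numbers pair the libraries. Limma-voom on recovered reads, added after seeing the data, called 2032 genes higher and 2194 lower and 1 sensing gene, EIF2AK2 (adjusted p = 0.000773). RIGI rests on 88 to 131 reads a library, with a counting error of 10.3% in si-SCR, and the cause of its differing calls was not tested.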
